A study of Mus musculus with 10 samples.

Results

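The mRNAs of 10 genes that control the cutting of proteins at the cell surface and in the extracellular matrix were followed in bEnd.3 cells, an immortalised mouse brain endothelial cell line, after treatment with StcE. They are 4 membrane-bound ADAM proteases (*Adam9*, *Adam10*, *Adam15* and *Adam17*), the ADAM17 partner *Rhbdf1*, the matrix proteases *Adamts1* and *Mmp14*, and the inhibitors *Timp1*, *Timp2* and *Timp3*. The genes were chosen by symbol from the 27024 named rows of the expression table, with earlier results of these data known. All 10 were among the 11062 genes tested, which had a mean of at least 1 FPKM (fragments of cDNA for each kilobase of exon, adjusted for sequencing depth). StcE is a bacterial metalloprotease that cuts glycoproteins carrying dense mucin-type O-glycans, and the comparison asked which transcripts differ between StcE-treated and saline-treated cells. Removal of these glycoproteins was not measured in the data used here. With saline as the control, effects of the added protein other than this cutting were not tested. Wild-type cells of this line, which is cultured in serum-containing medium, received 5 nM StcE (5 samples, replicates 1, 2, 3, 5 and 6) or saline (5 samples, replicates 1 to 5). RNA was collected at 16 h. All samples come from the same line, and no source used here says whether replicates were separate cultures or days, so the p-values below measure the spread between these samples, which may be technical. FPKM measures mRNA only, and in bulk samples fewer cells of a type cannot be told apart from less RNA per cell.

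ADAM proteases are anchored in the membrane and release the ectodomains of other membrane proteins, a step called shedding that produces soluble growth factors, cytokine receptors and adhesion molecules and that starts Notch signalling. Matrix metalloproteases (MMPs) and the secreted ADAMTS enzymes cut matrix proteins such as collagens and proteoglycans. Tissue inhibitors of metalloproteases (TIMPs) bind the active site of these enzymes with different preferences: TIMP3, which stays bound to the matrix, is known as an inhibitor of ADAM17, TIMP2 also takes part in the activation of pro-MMP2 by MMP14, and TIMP1 is a weak inhibitor of MMP14. In brain vessels this balance is known for its part in the turnover of the basement membrane and in leakage of the blood–brain barrier.

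*Timp1* and *Timp3* had the largest changes of the 10 genes, in opposite directions: *Timp1* mRNA rose by 37.8% after StcE and *Timp3* fell by 22.4%. The third inhibitor, *Timp2*, fell by 10.0%. Among the proteases, *Adam9* rose by 8.34% and *Adam10* fell by 9.66%, and the ADAM17 partner *Rhbdf1* fell by 6.64%. *Adam15*, *Adam17*, *Adamts1* and *Mmp14* did not pass the test. In all, 6 of the 10 genes passed an adjusted p of 0.05 by limma, where 11.9% of all tested genes did. Of these, 2 were higher, where 5.52% of all genes were called higher, and 4 were lower, where 6.41% were. The same 6 genes were those whose FPKM ranges did not overlap between the groups, which held for 10.7% of all genes. Since the 10 genes were chosen with earlier results of these data known, these counts do not test whether the group differs from other genes. By mean FPKM the 10 genes lay at positions 225 to 5020 of the tested genes, so all tested genes are no like background in level. The median log2 change over the 10 genes was -0.09, and that of all tested genes was -6.6e-04.

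**Figure D1:**
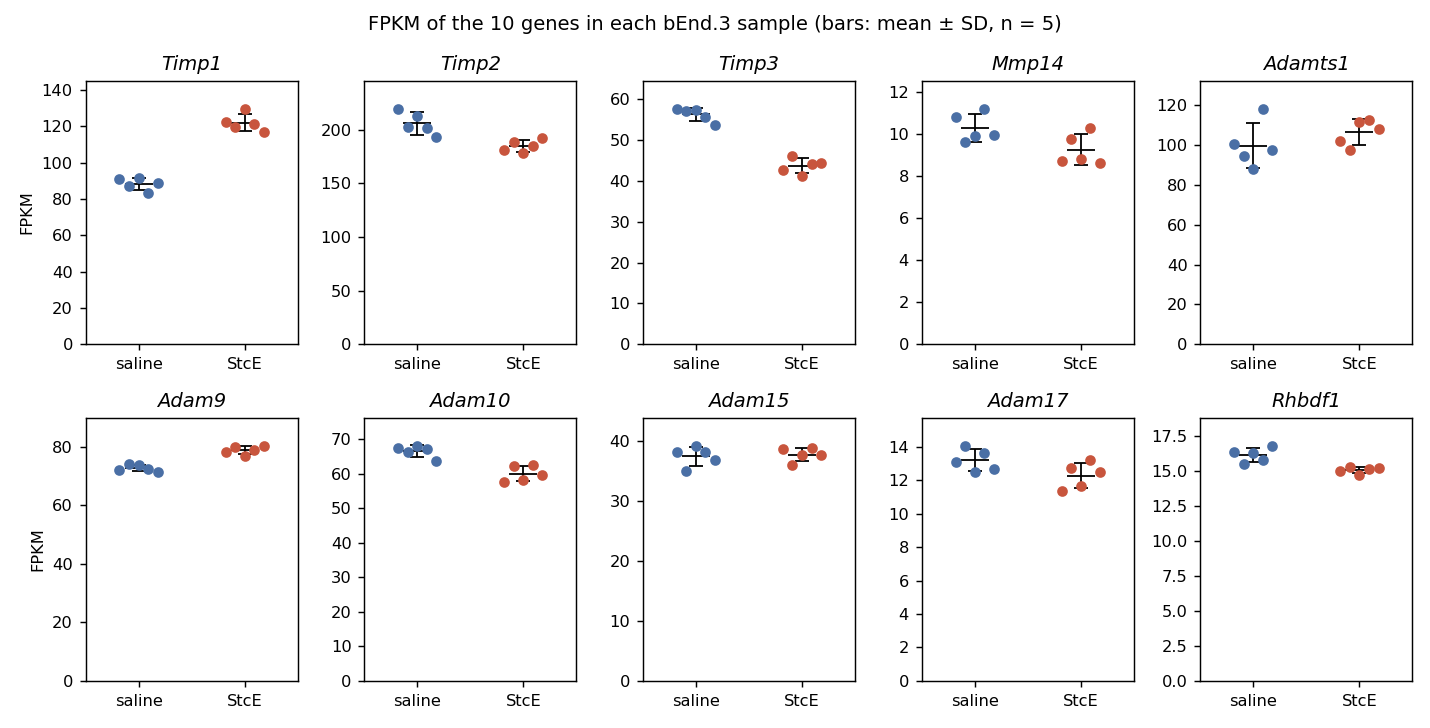
FPKM of each of the 10 genes in every sample (points), with the mean and SD of the saline and StcE groups; each panel has its own vertical axis. The StcE samples of *Timp1* sit between 117.0 and 129.5 FPKM, all above the saline samples, and those of *Timp3* between 41.3 and 46.0, all below them.

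The 3 TIMP genes lie on different chromosomes, and as they moved in different directions, promoter sequence is given here for *Timp1*, which rose, and *Timp3*, which fell. For each gene a window of 250 bases before the RefSeq start (GRCm38.p6, 5′ to 3′ on the strand of the gene) was searched on both strands for the AP-1 site TGANTCA, the GC box GGGCGG, the ETS site CCGGAA and the TATA box TATAAA. The *Timp1* window is chrX:20869916-20870165 (plus strand). That of *Timp3* is chr10:86300162-86300411 (plus strand), of which the last 40 bases lie inside the gene as annotated by GENCODE, so the 210 bases before the gene are printed, chr10:86300162-86300371. The *Timp2* window, chr11:118355412-118355661 (minus strand), lies inside its annotated gene with all 250 bases and is not printed, and the other 6 of the 8 windows given, that of *Timp1* included, had 0 bases inside their genes. Capitals mark motif matches.
Timp1: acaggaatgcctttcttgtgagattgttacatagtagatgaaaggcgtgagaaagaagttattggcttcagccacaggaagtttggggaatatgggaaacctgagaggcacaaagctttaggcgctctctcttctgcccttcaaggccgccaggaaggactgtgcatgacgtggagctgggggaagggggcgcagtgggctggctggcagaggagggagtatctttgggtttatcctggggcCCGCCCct
Timp3: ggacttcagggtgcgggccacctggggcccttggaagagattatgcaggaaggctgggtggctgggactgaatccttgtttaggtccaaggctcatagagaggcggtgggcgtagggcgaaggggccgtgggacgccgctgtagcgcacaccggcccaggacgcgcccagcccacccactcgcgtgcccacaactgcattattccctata
The *Timp1* window held a GC box 8 bases before the RefSeq start. That of *Timp2* held a GC box 37 bases before this start and that of *Timp3* held one 15 bases before it, both inside the annotated genes. None of these 3 windows held a match to the other 3 motifs. Windows were given for 8 of the 10 genes. A GC box was present in 8 of these 8 and in 32.7% of 32841 promoters of the same length, and no AP-1 match was present in any of the 8, against 6.75% of all promoters. The ETS letters were in 2 of the 8 (*Adam15* and *Adam17*), against 12.0% of all promoters, and the TATA letters in 1 (*Adamts1*), against 12.4%. The windows of *Timp2* and *Timp3*, at 68.0% and 65.6% G and C, were richer in these bases than that of *Timp1* at 54.4%, with a median of 52.4% over all promoters. All 8 windows lay above this median, at 54.4% to 74.0%, so all promoters are no like background for the GC box. The part of base content in the motif counts was not tested. A match says only that the letters are present, and binding was not measured.

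*Timp1* (chromosome X, 20870166 to 20874735, plus strand, within the oppositely oriented *Syn1*, with 0 shared exon bases) encodes a soluble inhibitor of most secreted MMPs. Its level was 90.9, 87.3, 91.9, 83.4 and 89.1 FPKM in the saline samples and 122.2, 119.7, 129.5, 121.3 and 117.0 FPKM in the StcE samples. Every StcE sample therefore lay above every saline sample, and the gap between the groups was wider than the range of either. The means were 88.5 ± 3.35 and 122.0 ± 4.65 FPKM (SD, n = 5 each), a log2 change of 0.46 (SE 0.0328; 95% interval 0.39 to 0.53) with an adjusted p of 5.1e-06 by limma and an exact permutation p of 0.00794, the smallest that 5 against 5 samples can give. By size it was in position 82 among all increases, and by p in position 30 of 11062 genes.

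*Timp3* (chromosome 10, 86300372 to 86349506, plus strand) encodes the matrix-bound inhibitor. It stood at 57.6, 57.0, 57.5, 55.7 and 53.7 FPKM with saline and at 42.6, 46.0, 41.3, 44.1 and 44.4 FPKM with StcE. Here too the groups were well apart, with all StcE samples below all saline samples. The mean went from 56.3 ± 1.63 to 43.7 ± 1.81 FPKM (SD, n = 5), a log2 change of -0.36 (SE 0.0314; 95% interval -0.43 to -0.29; adjusted p = 2.9e-05 by limma; exact permutation p = 0.00794), which put it in position 64 among all decreases. Its exons share 1733 bases (21.3% of its exon length) with *Syn3* on the opposite strand, a neuronal gene whose own mean was 0.0637 FPKM with saline and 0.0765 with StcE. The part of this and the other opposite-strand overlaps given below in the measured levels was not tested, since the strand setting of the counting is not known.

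*Timp2* (chromosome 11, 118301069 to 118355740, minus strand), which inhibits a broad range of MMPs, was the most highly expressed of the 10 genes. Its values were 219.2, 202.9, 213.0, 201.7 and 192.9 FPKM in saline and 181.2, 188.9, 178.8, 185.0 and 192.7 FPKM in StcE. The groups only just missed each other, at 192.9 FPKM in the lowest saline sample and 192.7 in the highest StcE sample. The means were 205.9 ± 10.3 and 185.3 ± 5.63 FPKM (SD, n = 5), with a log2 change of -0.15 (SE 0.0351; 95% interval -0.23 to -0.07; adjusted p = 0.019 by limma; exact permutation p = 0.00794). The call ended without StcE replicate 3 (adjusted p = 0.0526 by limma) and when genes of every level were tested with no filter (0.0602), with the same direction in both, while a minimum of 0.1 FPKM kept it (0.0298).

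**Figure D2:**
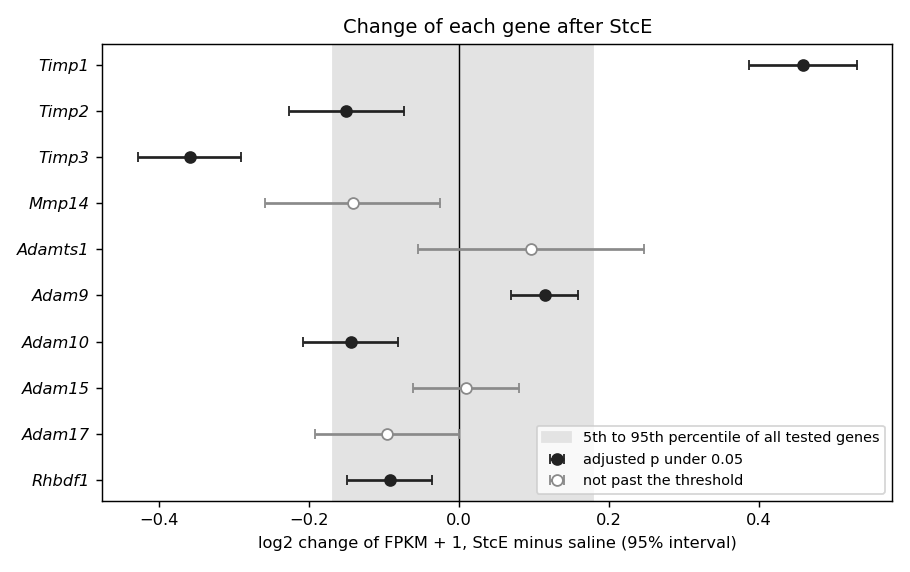
Log2 change of FPKM + 1 (StcE minus saline) of the 10 genes with its 95% interval; filled points passed an adjusted p of 0.05 and the grey band holds the 5th to 95th percentile of all 11062 tested genes, -0.17 to 0.18. *Timp1* at 0.46 and *Timp3* at -0.36 lie outside the band, and the other 8 genes lie inside it.

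Summed over the 3 genes, TIMP mRNA was at the same level in both groups, 350.7 ± 13.8 FPKM with saline and 351.0 ± 3.55 with StcE (SD, n = 5), while its makeup differed. *Timp1* made up 25.2% ± 0.801 of the sum with saline and 34.8% ± 1.54 with StcE. *Timp2* went from 58.7% ± 0.818 to 52.8% ± 1.20, and *Timp3* from 16.1% ± 0.328 to 12.4% ± 0.427. The groups did not overlap in any of the 3 shares, with *Timp1* at 24.5% to 26.5% in saline against 33.0% to 37.0% in StcE. There were 1.57 ± 0.0629 *Timp1* fragments per kilobase for each of *Timp3* in saline and 2.80 ± 0.216 in StcE. These are sums of mRNA, and levels of the proteins were not analysed here.

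**Figure D3:**
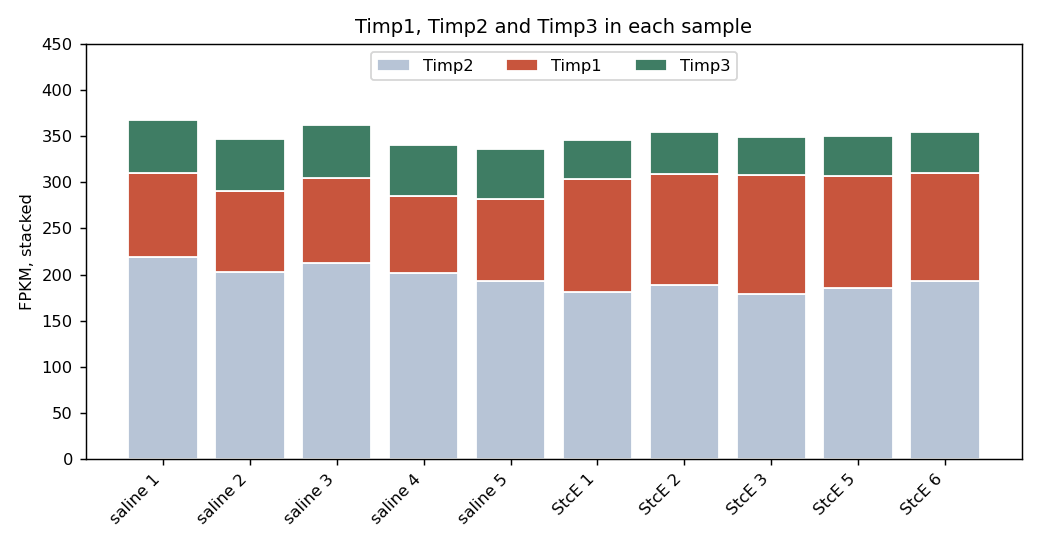
Stacked FPKM of *Timp2* (bottom), *Timp1* (middle) and *Timp3* (top) in each of the 10 samples; the vertical axis starts at 0. The height of the stack runs from 335.7 to 367.7 FPKM in saline and from 346.0 to 354.7 in StcE, while the *Timp1* segment is larger and the other segments smaller in the StcE samples.

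The differences between the inhibitors were tested on the ratio of 2 genes within each sample, among 7 pairs set by role, with exact two-sided permutation tests and Benjamini-Hochberg adjustment over the pairs. The log2 ratio of *Timp1* to *Timp2* was higher by 0.61 after StcE, that of *Timp1* to *Timp3* by 0.82 and that of *Timp2* to *Timp3* by 0.21. Each had an exact permutation p of 0.00794 (adjusted 0.0185) and groups that did not overlap. For both pairs with *Timp1* this outcome was fixed by the single-gene values, where *Timp1* rose and *Timp2* and *Timp3* fell without overlap. Those pairs therefore add no support, and their p-values also lower the adjusted p of *Timp2* to *Timp3*. In the pair of *Timp2* and *Timp3*, whose outcome was not fixed in this way, *Timp3* fell further than *Timp2*. By contrast, the log2 ratio of *Mmp14* to *Timp2* was -4.19 ± 0.0951 in saline and -4.18 ± 0.105 in StcE (SD, n = 5), a difference of 0.0083 (exact permutation p = 0.889, adjusted 0.921) within the spread of the samples.

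Among the membrane sheddases, *Adam9* and *Adam10* moved in opposite directions. *Adam10* (chromosome 9, 70678997 to 70780229, plus strand) encodes the main protease that cuts Notch receptors and VE-cadherin at the surface. It was at 67.5, 66.2, 68.1, 67.3 and 63.7 FPKM in saline and at 57.7, 62.2, 58.3, 62.6 and 59.8 FPKM in StcE. All StcE samples lay below the lowest saline sample. The mean fell from 66.6 ± 1.75 to 60.1 ± 2.20 FPKM (SD, n = 5; log2 change -0.14, SE 0.0289, 95% interval -0.21 to -0.08, adjusted p = 0.0085 by limma, exact permutation p = 0.00794).

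*Adam9* (chromosome 8, 24949611 to 25016927, minus strand), a widely expressed sheddase, was at 72.0, 74.0, 73.9, 72.3 and 71.4 FPKM in saline and at 78.0, 79.9, 76.9, 78.9 and 80.2 FPKM in StcE. The change was small, yet the spread within each group was smaller still and the groups did not overlap. The means were 72.7 ± 1.17 and 78.8 ± 1.37 FPKM (SD, n = 5), with a log2 change of 0.11 (SE 0.0204; 95% interval 0.07 to 0.16; adjusted p = 0.0045 by limma; exact permutation p = 0.00794). As a description of both together, the ratio of *Adam9* to *Adam10* was 1.09 ± 0.0251 in saline and 1.31 ± 0.0384 in StcE.

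*Adam17* (chromosome 12, 21323509 to 21373632, minus strand) encodes the TNF-converting enzyme, which also sheds ligands of the EGF receptor. It was measured at 13.1, 14.0, 12.5, 13.6 and 12.7 FPKM in saline and at 11.4, 12.7, 11.6, 13.2 and 12.5 FPKM in StcE. The groups overlapped, with StcE replicate 5 above 3 of the saline samples. The log2 change of -0.10 (SE 0.0438; 95% interval -0.19 to -2.5e-04) did not pass the test (adjusted p = 0.179 by limma; exact permutation p = 0.111). Its exons share 311 bases (4.35%) with *Iah1* on the opposite strand, which was at 2.93 FPKM in saline and 2.98 in StcE.

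*Adam15* (chromosome 3, 89338542 to 89349996, minus strand), whose protein also carries an integrin-binding site, lay between 35.1 and 39.2 FPKM in saline and between 36.0 and 38.8 in StcE. Its means of 37.5 ± 1.59 and 37.7 ± 1.13 FPKM (SD, n = 5) gave a log2 change of 0.0094 with a 95% interval of -0.06 to 0.08 (adjusted p = 0.884 by limma). Its exons share 1263 bases (20.6%) with *4731419I09Rik* on the opposite strand, which was at 0.179 FPKM in saline and 0.240 in StcE.

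Between the sheddases, 2 pairs were compared. The log2 ratio of *Adam10* to *Adam17* differed by -0.05 between the groups (exact permutation p = 0.238, adjusted 0.333), so that the call on *Adam10* and the missing call on *Adam17* were not shown to differ. The ratio of *Adam9* to *Adam15* was higher by 0.10 on the log2 scale (exact permutation p = 0.0317, adjusted 0.0556) and missed the threshold.

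*Rhbdf1* (chromosome 11, 32209585 to 32222300, minus strand) encodes iRhom1, an inactive rhomboid that carries ADAM17 to the cell surface. It stood at 16.4, 15.5, 16.3, 15.8 and 16.8 FPKM in saline and at 15.0, 15.3, 14.7, 15.2 and 15.2 FPKM in StcE. The lowest saline sample was just above the highest StcE sample. The mean fell from 16.1 ± 0.514 to 15.1 ± 0.239 FPKM (SD, n = 5), a log2 change of -0.09 (SE 0.0258; 95% interval -0.15 to -0.04; adjusted p = 0.0391 by limma; exact permutation p = 0.00794). This call was the least firm of the 6, since it was lost without saline replicate 1, 3 or 5 or StcE replicate 1, 3, 5 or 6, with adjusted p by limma between 0.0276 and 0.0968 over the 10 samples left out in turn, and also when no filter on level was used (0.0587) or samples were scaled by total fragments (0.0538). With a minimum of 0.1 FPKM it was kept (adjusted p = 0.0484 by limma). The log2 ratio of *Adam17* to *Rhbdf1* differed by -0.0034 (exact permutation p = 0.921, adjusted 0.921).

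Neither matrix protease passed the test. *Adamts1* (chromosome 16, 85793827 to 85803113, minus strand), a secreted protease that cuts proteoglycans and limits vessel growth, was at 100.7, 94.3, 87.9, 117.9 and 97.6 FPKM in saline and at 101.9, 97.3, 111.4, 112.7 and 107.9 FPKM in StcE. Saline replicate 4 was the highest of all 10 samples and saline replicate 3 the lowest, and this was the member with the widest spread. The means of 99.7 ± 11.3 and 106.3 ± 6.53 FPKM (SD, n = 5) gave a log2 change of 0.10 (SE 0.0688; 95% interval -0.05 to 0.25; adjusted p = 0.397 by limma; exact permutation p = 0.286).

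*Mmp14* (chromosome 14, 54431612 to 54445364, plus strand), the membrane-anchored MMP known for collagen breakdown and sprouting, was the lowest of the 10 genes. It was at 10.8, 9.64, 9.94, 11.2 and 9.97 FPKM in saline and at 8.74, 9.79, 8.83, 10.3 and 8.66 FPKM in StcE. In StcE, 3 samples lay below all saline samples, and replicates 2 and 5 lay within the saline range. The log2 change of -0.14 (SE 0.0532; 95% interval -0.26 to -0.03) was as large as that of *Adam10*, with more spread (adjusted p = 0.107 by limma; exact permutation p = 0.0635).

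In FPKM, a scale set per length, the order of the levels with saline was *Timp2*, *Adamts1*, *Timp1*, *Adam9*, *Adam10*, *Timp3*, *Adam15*, *Rhbdf1*, *Adam17* and *Mmp14*. Among neighbours in this order, the ranges of *Adamts1* and *Timp1* overlapped, and those of the other neighbours did not. *Adamts1* was above *Timp1* in 4 of the 5 saline samples and in 0 of the 5 StcE samples, and the order of the other genes was the same in both groups. The 6 proteases summed to 299.9 ± 12.3 FPKM with saline and 304.4 ± 8.04 with StcE, so the sum of the TIMPs was 1.17 and 1.15 times that of the proteases. Between 1699 and 3988 fragments per sample lay behind *Timp1*, 8156 to 14256 behind *Timp3* and 16610 to 25978 behind *Timp2*.

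**Figure D4:**
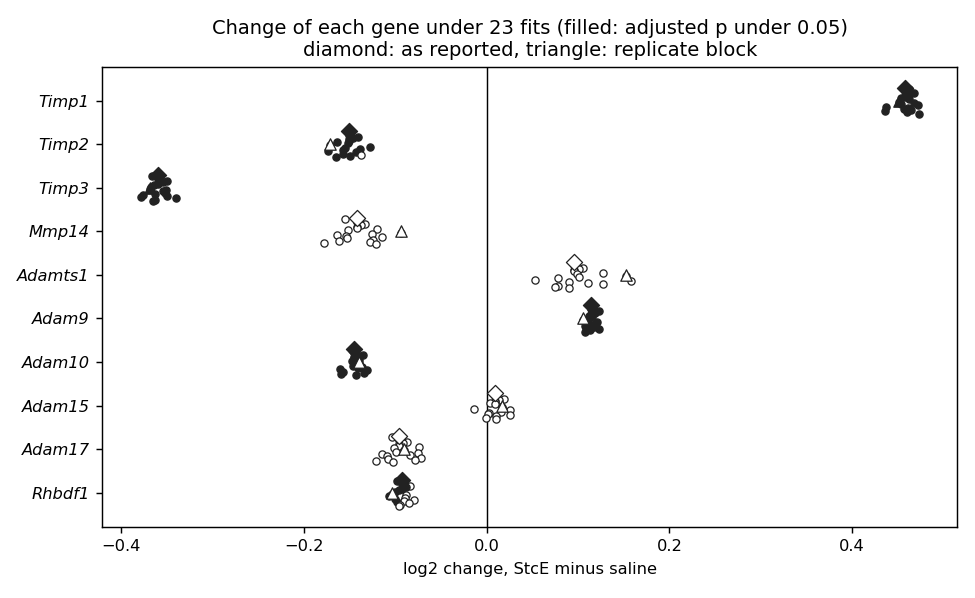
Log2 change of each of the 10 genes (StcE minus saline) in the reported fit (diamond) and in 22 alternatives (circles; triangle for the fit with the replicate block), filled where the adjusted p was under 0.05. *Timp1* and *Timp3* stayed past the threshold in 22 of 22, *Adam9* and *Adam10* in 21, *Timp2* in 19 and *Rhbdf1* in 11, and the other 4 genes in 0.

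The other genes of the same families were followed by lists, whose counts stand beside 5.52% called higher and 6.41% called lower among all tested genes. Of 7 tested membrane ADAM sheddases, 3 were higher, 1 was lower and 3 were not past the threshold (median log2 change 0.0094). Besides *Adam9*, the higher genes were *Adam19*, at 8.56 ± 0.674 FPKM in saline and 10.7 ± 0.478 in StcE (log2 change 0.29, adjusted p = 0.0026 by limma), and *Adam8*, a sheddase best known from leukocytes, at 25.3 ± 0.823 and 28.9 ± 0.916 FPKM (0.18, adjusted p = 0.0024 by limma). Of 3 ADAMs without an active site, 0 reached the minimum level.

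Of 9 tested partners and activators of ADAM10 and ADAM17, 3 were lower, 0 were higher and 6 were not past the threshold (median log2 change -0.09), where 6.41% of all genes were called lower. *Furin*, the convertase that removes the inhibitory prodomain of ADAM proteases, fell from 21.2 ± 1.13 to 18.1 ± 1.01 FPKM (log2 change -0.22, adjusted p = 0.0088 by limma). The related convertase *Pcsk6* fell from 9.61 ± 0.493 to 8.43 ± 0.477 FPKM (-0.17, adjusted p = 0.0252 by limma), and *Rhbdf1* was the third. *Rhbdf2*, which encodes iRhom2, had a log2 change of -0.06 (adjusted p = 0.321 by limma) and *Frmd8*, which stabilises iRhoms at the surface, of -0.09 (adjusted p = 0.0904 by limma). The count of 3 dropped to 1 without saline replicate 1, saline replicate 3 or StcE replicate 3, and to 1 with no filter, and it was 3 with a minimum of 0.1 FPKM. In the fit with the replicate block it was 0.

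The secreted matrix proteases were divided. *Mmp3* (stromelysin 1), which cuts proteoglycans and activates other MMPs, had the largest increase of the tested list genes on the log2(FPKM + 1) scale. It was at 39.6 to 47.7 FPKM in saline and at 54.3 to 68.7 in StcE, with means of 43.1 ± 3.15 and 62.6 ± 5.77 FPKM (SD, n = 5; log2 change 0.53, adjusted p = 4.6e-04 by limma). Its relative *Mmp10* was expressed at a low level, at 0.811 ± 0.136 and 1.26 ± 0.258 FPKM from 24 to 88 fragments per sample, with overlapping groups (0.32, adjusted p = 0.0334 by limma). With a mean of 1.04 FPKM over all samples, *Mmp10* reached the minimum only through the StcE group, where it was higher, so its call carries little weight. The list held 1 higher call in place of 2 without saline replicate 1, 2 or 4 or StcE replicate 3, 5 or 6. *Mmp11* was lower, at 2.97 ± 0.237 and 2.42 ± 0.254 FPKM (-0.22, adjusted p = 0.0355 by limma). The *Mmp11* call was lost without saline replicate 1, 2 or 3 or StcE replicate 2, 3, 5 or 6, and with a minimum of 0.1 FPKM the list had 3 higher and 0 lower genes. In all, 2 of 4 tested secreted MMPs were higher, *Mmp10* among them, 1 was lower and 1 was not past the threshold. This count of 3 calls dropped to 1 without saline replicate 1 or 2 or StcE replicate 3, 5 or 6. The gelatinases were below the minimum: *Mmp2* at 0.991 ± 0.207 and 0.805 ± 0.103 FPKM, with overlapping groups, and *Mmp9* at 0.0268 ± 0.0298 and 0.0246 ± 0.0154 FPKM from 0 to 8 fragments per sample.

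Of 7 tested ADAMTS proteases, 2 were higher, 1 was lower and 4 were not past the threshold (median log2 change 0.10). The aggrecanase *Adamts4* rose from 34.2 ± 1.81 to 41.9 ± 1.89 FPKM (0.28, adjusted p = 0.0012 by limma), and *Adamts10*, known from fibrillin microfibrils, from 4.59 ± 0.195 to 5.52 ± 0.481 FPKM (0.22, adjusted p = 0.0168 by limma). *Adamts12* fell from 1.49 ± 0.0476 to 1.20 ± 0.119 FPKM (-0.18, adjusted p = 0.0348 by limma). The list held 0 lower calls when any sample other than StcE replicate 2 or 5 was left out, and with no filter the count of 3 calls in the list dropped to 1, while a minimum of 0.1 FPKM left it at 3. Of 2 membrane-bound MMPs (*Mmp14* and *Mmp15*), 0 passed the test by limma on FPKM and 0 by voom on recovered fragments, while 1 (*Mmp14*) had an unadjusted p under 0.05. Among the inhibitors outside the TIMPs, the membrane-anchored *Reck* was at 2.05 ± 0.136 and 1.78 ± 0.18 FPKM (log2 change -0.13, adjusted p = 0.128 by limma).

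Of 26 tested endothelial proteins known to be shed by ADAM10 or ADAM17, 3 were higher, 8 were lower and 15 were not past the threshold (median log2 change -0.10), beside 5.52% higher and 6.41% lower among all genes. The endothelial marker list, which shares *Cdh5*, *Tek* and *Kdr* with this list, had 5 of 9 genes lower and a median of -0.11, and its part in these decreases was not tested. On the log2(FPKM + 1) scale the largest decreases were those of *Efnb2*, the arterial ephrin ligand, from 24.6 ± 1.06 to 16.9 ± 0.575 FPKM (-0.52, adjusted p = 1.8e-06 by limma), of *Vcam1*, a leukocyte adhesion receptor, from 6.67 ± 0.674 to 4.78 ± 0.455 FPKM (-0.41, adjusted p = 0.0029 by limma), and of the membrane-bound chemokine *Cx3cl1* from 6.77 ± 0.511 to 5.35 ± 0.729 FPKM (-0.29, adjusted p = 0.0268 by limma). The 3 higher genes were *Hbegf*, a membrane-bound ligand of the EGF receptor, from 38.8 ± 2.49 to 48.8 ± 1.34 FPKM (0.33, adjusted p = 4.8e-04 by limma), the protein C receptor *Procr* (0.21, adjusted p = 0.0012 by limma) and the hyaluronan receptor *Cd44* (0.19, adjusted p = 0.0017 by limma). With no filter the count of 11 calls dropped to 7, and with a minimum of 0.1 FPKM it was 11. These are mRNA levels of the substrates, and shedding itself was not measured.

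Of 12 tested matrix substrates, 3 were lower, 0 were higher and 9 were not past the threshold (median log2 change -0.14), beside 6.41% lower among all genes. The basement membrane collagens *Col4a1* (537.6 ± 27.7 and 468.9 ± 34.6 FPKM, log2 change -0.20, adjusted p = 0.0307 by limma) and *Col4a2* (422.5 ± 27.3 and 363.5 ± 28.2 FPKM, -0.22, adjusted p = 0.0326 by limma) were lower, with groups that overlapped. The matrix protein *Sparc* was lower (784.4 ± 26.8 and 707.8 ± 32.2 FPKM, -0.15, adjusted p = 0.0201 by limma) and its groups did not overlap. The count of 3 fell to 0 without saline replicate 1, to 1 without saline replicate 3 or 4 or StcE replicate 1 or 3, to 1 with a minimum of 0.1 FPKM and to 0 with no filter.

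**Figure D5:**
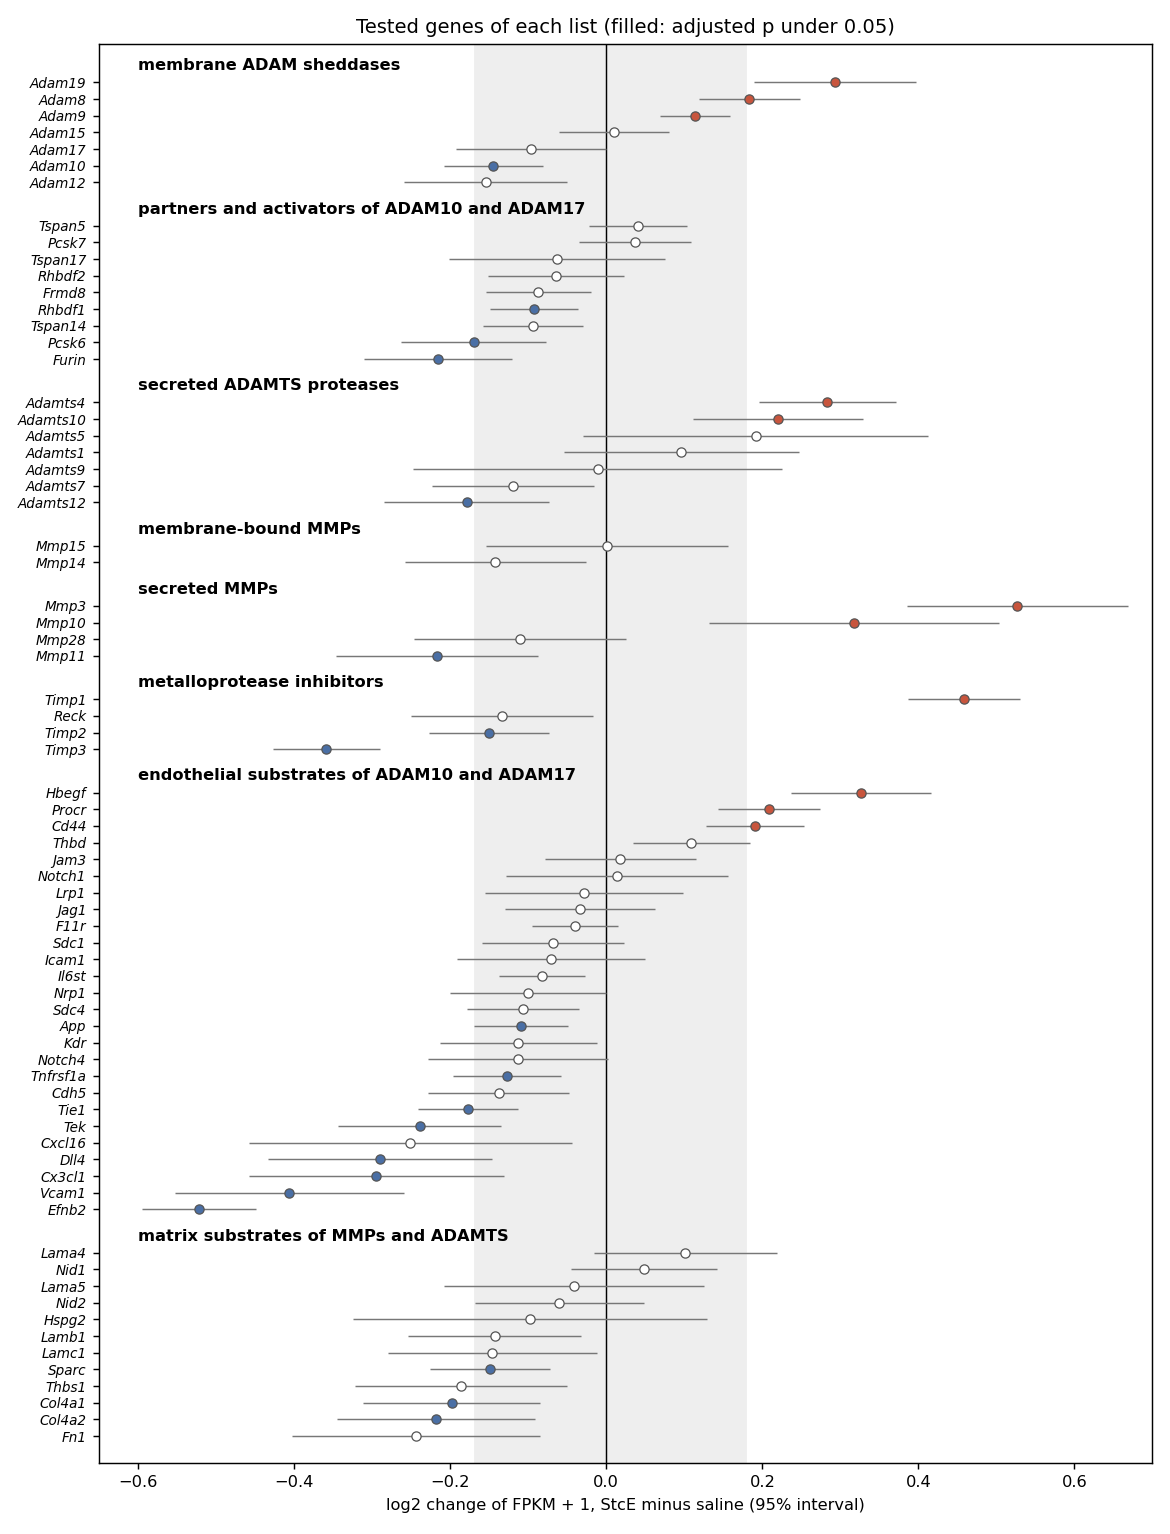
Log2 change of FPKM + 1 (StcE minus saline) with its 95% interval for every tested gene of the 8 lists with tested members, filled red where higher and blue where lower at an adjusted p under 0.05; the grey band is the 5th to 95th percentile of all genes. *Mmp3* at 0.53 and *Timp1* at 0.46 are the rightmost points and *Efnb2* at -0.52 the leftmost.

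The cell line label was checked against markers. All 9 endothelial markers were expressed, and their summed level was 1673 to 1808 FPKM in saline and 1580 to 1674 FPKM in StcE. Of these 9, 5 were lower (*Tek*, *Flt1*, *Erg*, *Pecam1* and *Esam*) and 0 were higher, beside 6.41% lower and 5.52% higher among all tested genes. Their median log2 change was -0.11, and the part of this shift in the decreases of *Timp3*, *Timp2*, *Adam10* and *Rhbdf1* was not tested. Markers of pericytes and fibroblasts summed to 3.28 to 6.51 FPKM in saline and 3.99 to 6.0 in StcE over 6 genes. Epithelial markers summed to 0.110 to 0.221 and 0.139 to 0.238 FPKM, and neural markers to 0.0357 to 0.0827 and 0.0429 to 0.0889 FPKM. The leukocyte list summed to 19.4 to 21.7 FPKM in saline and 17.7 to 21.2 in StcE, of which *Cd68* made up 20.1 FPKM on average, and of the markers of these other cell types only *Pdgfra*, *Acta2* and *Cd68* reached the minimum level for the test, of which 0 passed by limma, also at an unadjusted p of 0.05. Fragments recovered over the 25898 genes with whole values in every sample numbered 21864604 to 33147402 per sample, which is only part of the sequencing depth. In the saline samples they numbered 21922594 to 29017310. A count of 3 fragments on a gene of 1 kb corresponds to 0.0857 to 0.131 FPKM.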

How the data were processed

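RNA of 10 bEnd.3 samples (5 saline, 5 StcE) was purified with poly-T beads and made into directional (dUTP) libraries. The submitters' processing notes name the build mm10, HISAT2 2.0.5, featureCounts 1.5.0-p3 and DESeq2 1.32.0. The authors deposited FPKM values, 1 column per sample, for 27024 named rows, with 22874 further rows empty and 12 names on several rows. The annotation release and the strand setting of the counting are not given in the sources used here. No count table was analysed, so no count model was the main test.

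Genes with a mean of at least 1 FPKM (11062) entered a limma fit (version 3.58.1, R 4.3.3; lmFit and eBayes, trend on) of log2(FPKM + 1) on treatment alone, and p-values were adjusted by Benjamini-Hochberg over all of them. A pseudocount of 1 understates the change of low genes. Of all genes, 1320 passed an adjusted p of 0.05 (611 higher, 709 lower). The procedure was run on simulated data with known changes. These values were drawn independently for each gene and sample, so effects that real samples share were not covered. For single genes and for ratios of gene pairs, all arrangements of the samples into 5 and 5 were enumerated in two-sided exact permutation tests. Whole fragments were recovered with exon lengths of GENCODE vM21 (GRCm38): 96.6% of values above 0 lay within 0.05 of a whole fragment, where chance gives 10%. Genes with whole values in every sample were used for the fragment totals and for a voom fit, which called 1494 genes. The 95% intervals of changes come from the spread between samples, and the FPKM given for 3 fragments covers counting error only. Replicates differed by more than sampling noise (chi-square per degree of freedom 3.21 to 9.16).

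Transcripts of the 10 genes were compared with other genes by BLAST 2.17.0 (at least 95% identity over at least 150 bases), which found only loci overlapping *Timp3*, *Adam15* and *Adam17* on the opposite strand. Promoter windows came from RefSeq (GRCm38.p6), matched by symbol for 8 of the 10 genes. The 10 genes and all lists were chosen with earlier results of these data known. Besides the 10 genes, the text names the list genes past the threshold, up to the 3 largest changes in each direction of a list, and *Mmp2*, *Mmp9*, *Reck*, *Rhbdf2*, *Adam19*, *Furin* and *Frmd8* whatever their values. Lists were described by counts and medians, and no set test was run. The alternatives were a pseudocount of 0.1, a minimum mean of 0.1 FPKM, no filter, scaling by median ratio, total fragments or upper quartile, eBayes without trend or with robust settings, array weights, voom, the replicate number as a block, the same 8 samples without the block, and each sample left out in turn.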

Additional observations from a re-analysis of the deposited data

How the results depend on the processing

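Over 22 alternatives, *Timp1* (log2 change 0.44 to 0.47) and *Timp3* (-0.38 to -0.34) kept their direction and their call. Testing without the filter on low genes called 801 genes in place of 1320, and *Timp2* (-0.15, adjusted p = 0.0602 by limma) and *Rhbdf1* (-0.0928, adjusted p = 0.0587) were then past the threshold no longer. *Rhbdf1* also lost its call when scaled by total fragments (-0.0839) and in the 8 samples without the block (-0.10). The difference between the groups in the log2 ratio of *Mmp14* to *Timp2* (StcE minus saline) was -0.0041 with a pseudocount of 0.1. In the reported test it was 0.0083. The causes were not tested.

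Leaving out each sample in turn, 793 (without StcE replicate 3) to 1255 genes and 4 to 6 of the 10 genes passed, with 838 genes without saline replicate 1. The log2 changes then ranged from 0.11 to 0.12 for *Adam9*, -0.16 to -0.13 for *Adam10*, -0.0136 to 0.0260 for *Adam15* (negative without saline replicate 2 or StcE replicate 5), -0.12 to -0.07 for *Adam17*, -0.107 to -0.0791 for *Rhbdf1*, 0.05 to 0.16 for *Adamts1*, -0.18 to -0.11 for *Mmp14* and -0.17 to -0.13 for *Timp2*. The differences between the groups in the log2 pair ratios (StcE minus saline) ranged from -0.0275 to 0.0436 for *Mmp14* to *Timp2* and -0.0300 to 0.0321 for *Adam17* to *Rhbdf1*. For *Adam9* to *Adam15* the difference ranged from 0.0829 to 0.134, and it passed the threshold without saline replicate 2 (adjusted p = 0.0278, exact permutation).

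Replicates 1, 2, 3 and 5 exist in both groups. Same-numbered samples did not deviate together (correlations -0.0966, -0.0225, -0.0265 and 0.0538 across genes), so the numbers were not taken as pairs. With the replicate block on these 8 samples, 349 genes and 2 of the 10 genes (*Timp1* and *Timp3*) passed, against 885 genes and 5 of the 10 without the block. Under the replicate block the log2 changes were 0.11 for *Adam9*, -0.14 for *Adam10*, -0.10 for *Rhbdf1* and -0.17 for *Timp2*, with adjusted p by limma of 0.106, 0.140, 0.167 and 0.099.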

Other observations

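*Mmp13* (collagenase 3) lay below the minimum level and was singled out after its values were seen. It was at 0.197 to 0.307 FPKM in saline and at 0.449 to 0.647 FPKM in StcE, from 13 to 60 fragments per sample, and its groups did not overlap. The means were 0.261 ± 0.0521 and 0.510 ± 0.0785 FPKM (SD, n = 5; exact permutation p = 0.00794, with no adjustment over genes). A screen for single samples far from the rest of their group (Dixon's test) found 0 in 68 groups of values, where chance would give about 3.4.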
